A study of Arabidopsis thaliana with 9 samples.

Results

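What the removal of the wall adds to the response of a plant cell already held in mannitol was read by setting protoplasts against walled cells in medium of the same mannitol molarity. The comparison took 6 of the study's 9 arrays, chosen by their titles, and was read over 22746 of the 22810 probe sets of the Affymetrix ATH1 array, the other 64 being controls. The cells were of T87, a wild-type suspension line of Arabidopsis thaliana that grows as undifferentiated cells, here under light at 22 °C and 4 days after dilution. For the 3 protoplast arrays, cells had spent 1.5 h in 0.35 M mannitol with the wall-digesting enzymes cellulase Onozuka RS (at 1%) and pectolyase Y-23 (at 0.5%). They were then rinsed 3 times with 0.4 M mannitol and kept for 3 h in medium holding 0.4 M mannitol. For the 3 osmotic arrays, walled cells went straight into medium with 0.4 M mannitol for 3 h. The 3 remaining arrays, of intact cells without mannitol, entered the fit and are quoted for reference. No osmotic culture was given a mock digestion or mock rinses. Contact with the enzymes, loss of the wall, rinsing and the additional 1.5 h in mannitol therefore cannot be told apart, and "in protoplasts" stands for all of them together. The labels call the 3 arrays of a group biological replicates. The limma p-values set each difference against the spread between replicates, estimated over all 3 groups, intact cells included, and moderated across probe sets.

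The primary wall of a plant cell is a mesh of cellulose microfibrils tied by xyloglucan and set in pectin. Enzymes of the cell itself loosen, cut and rejoin this mesh during growth, and receptor kinases of the plasma membrane sense its state. Fragments released from a damaged wall act as danger signals, which open calcium channels and switch on genes that are also induced by microbial patterns. A protoplast is a cell stripped of this wall, which survives only in an osmolyte and, in culture, lays down new wall material.

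Each value is an intensity on a linear scale, and every array had been scaled to a trimmed mean of 500. Differences are given as log2 of the intensity plus 16, protoplast minus osmotic, with a standard error and a limma p-value adjusted over all probe sets, and a probe set was called at an adjusted p under 0.05. The median probe set read 155 ± 9.42 on osmotic and 123 ± 7.56 on protoplast arrays (SD, n = 3). The ratio of 3′ to 5′ actin control probe sets, a sign of RNA integrity and labelling, was 7.40, 8.80 and 8.34 in osmotic cells and 12, 10.6 and 10.3 in protoplasts (exact permutation test, two-sided p = 0.1, the smallest that 3 against 3 arrays allow). The ubiquitin ratio ran the other way, from 2.32 to 2.45 against 1.80 to 2.17 (exact permutation p = 0.1). The GAPDH ratio was 1.21 to 1.32 against 1.30 to 1.70 (exact permutation p = 0.2), and the 25S rRNA probe set read 19980 to 20550 against 20620 to 24760 (exact permutation p = 0.1). The part of these signs in the differences below was not tested. Markers of differentiated cell types stayed dim on both sides. The summed intensity of the 2 measured root hair genes was 16.4 to 44.3 in osmotic cells and 31.8 to 65.9 in protoplasts, and that of the 3 guard cell genes 15.1 to 44.8 and 20.8 to 28.8. The secondary wall gene GUT2 read 89.6 to 98.6 and 94.3 to 110.5. None of these 6 genes was called as deposited, and GUT2 passed narrowly after median scaling (limma adjusted p = 0.0498). The epidermal symbol FDH matched the formate dehydrogenase gene instead, so no epidermal marker was read.

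Protoplasts differed from osmotic cells at 9565 probe sets, 42.1% of all those tested. Of these, 3366 were higher (14.8% of all) and 6199 lower (27.3%). The rises were fewer but reached further. At least a 2-fold change was seen at 2447 rises (10.8%) and 3936 falls (17.3%), but at least an 8-fold change at 501 rises (2.2%) and 78 falls (0.343%). The largest rise was 8.54 and the largest fall -4.89 on the log2 scale, and 4145 probe sets (18.2%) had all protoplast arrays above all osmotic arrays while 7256 (31.9%) had them below. In whole RNA of a culture, fewer cells that make a transcript and less of it per cell cannot be told apart.

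**Figure D1:**
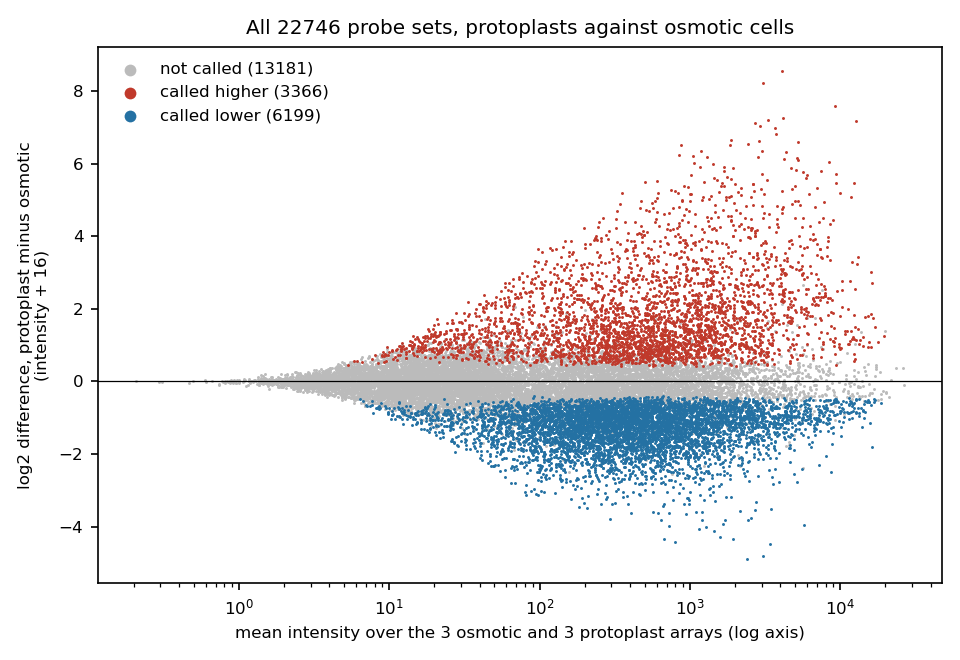
Each point is 1 of 22746 probe sets, at its mean intensity over the 6 arrays (log x axis) and its log2 difference between protoplasts and osmotic cells (y axis). Red points were called higher (3366), blue points lower (6199) and grey points not called. The red cloud reaches 8.54 and the blue cloud -4.89.

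How many of the calls were falls depended on the scaling of the arrays. As deposited, 64.8% of the calls were lower, with a median log2 difference of -0.15 over all probe sets. Median scaling moved that median to 0.04 and gave 4665 rises and 4295 falls (47.9% lower), quantile normalization 3929 and 5406 (57.9%) with a median of -0.07, and centring on the hybridisation controls 2518 and 7522 (74.9%) with a median of -0.37. No probe set was called in opposite directions as deposited and under any of these 3 scalings. All 3366 rises were also called after median scaling, and all 6199 falls after centring on the hybridisation controls. Of the protoplast arrays, the third was the lowest of its group at 434 of the 501 rises of at least 8-fold and at 1821 of the 2447 of at least 2-fold. Among the 3936 falls of at least 2-fold it was the highest at 2961. At the 8-fold rises it lay by a median of 0.92 on the log2 scale below the mean of the other protoplast arrays, and by more than 2-fold at 227 of them. Without that array 3527 rises and 6640 falls were called, sharing 3111 and 5898 with the calls above.

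The share of probe sets called differed with brightness. Of 10 equal bins of probe sets by brightness, the dimmest had 1.14% called higher and 0.967% lower. The share called lower climbed from 33.6% in the fifth bin to 47.7% in the brightest, where 17.7% were called higher. The rises had their highest share, 22.2%, in the eighth bin.

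**Figure D2:**
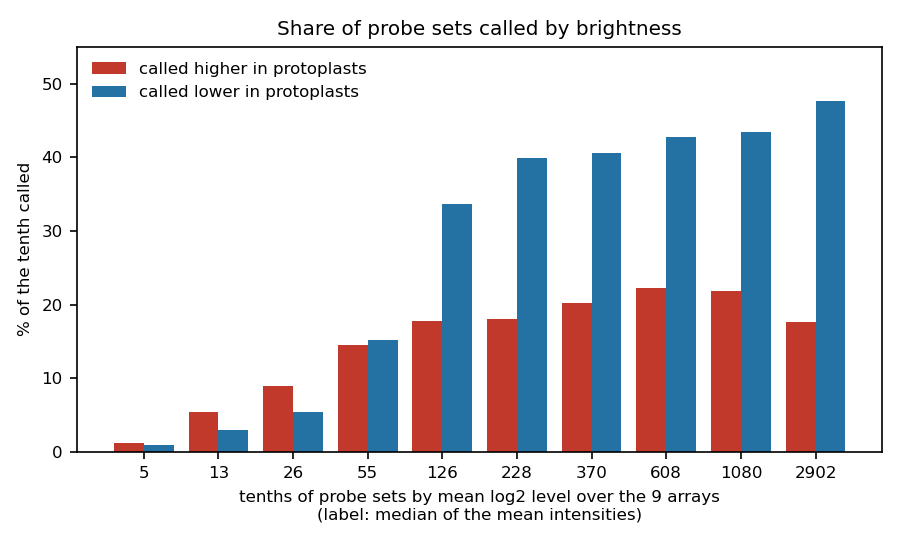
Bars give the percentage of probe sets called higher (red) and lower (blue) in protoplasts in each of 10 equal bins of probe sets, ordered by their mean log2 level over the 9 arrays and labelled with the median of the mean intensities. The blue bars grow from 0.967% to 47.7%, and the red bars from 1.14% to 22.2% in the eighth bin.

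The names on this array cover part of what moved. A symbol other than a locus code was held by 1579 probe sets, a locus code alone by 11934, several genes by 503, and 8730 were named by no table used here. Among probe sets with a symbol, 230 rose (14.6%) and 438 fell (27.7%), and among those with a locus code 1590 (13.3%) and 3055 (25.6%). Among the unnamed, 1472 rose (16.9%) and 2580 fell (29.6%). Of the 501 rises of at least 8-fold, 43 had a symbol, 209 a locus code and 241 no name, and the remaining 8 read several genes. Of the 78 falls of that size, 8 had a symbol, 29 a locus code and 41 no name. The gene lists below found their members by symbol or synonym, or by chromosome for organelle genomes. They were chosen with earlier results of these data known, so their counts are descriptions and not tests. Family members without a matching name could be missed, and "measured" in a list means matched in this way. For comparison with the list counts, 13.5% of all genes rose and 26.0% fell, each read by its brightest probe set.

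The largest rise of all was that of AT3G53600, a gene known by its locus code alone, which read 2.84, 0.544 and 14.2 in intact and 11.2, 1.6 and 1.23 in osmotic cells but 10810, 9647 and 4056 in protoplasts. Its log2 difference was 8.54 ± 0.39 (limma adjusted p = 4.9e-06). The unnamed probe set 262099_s_at went from 3.1, 5.84 and 3.02 to 7237, 7186 and 3944, a difference of 8.21 ± 0.24 (limma adjusted p = 5.0e-07), and 253060_at from 41.4, 47.8 and 1.23 to 8607, 8347 and 2737. These probe sets were near the floor of the array in every walled culture and among bright ones in every protoplast culture. In all, 10 probe sets read under 50 on all 6 arrays of walled cells and over 1000 on all 3 protoplast arrays. They were BGLU45, the locus codes AT3G53600, AT5G12340, AT4G28085 and AT1G36640, and 5 without a name. The converse, over 1000 on all arrays of walled cells and under 100 on all protoplast arrays, was met by 0 of the 2622 probe sets that read over 1000 in walled cells. AT4G28085 rose with the smallest spread of the 10, from 3.6, 4.61 and 1.42 to 1839, 1843 and 1531.

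Other locus-code genes reached some of the brightest signals of the array. AT3G16530 went from 251, 233 and 62.3 to 27100, 29460 and 19700 (7.18 ± 0.43, limma adjusted p = 1.1e-05), AT1G14550 from 114, 124 and 28.5 to 19720, 21180 and 14100 (7.60), and AT1G26380 from 82.2, 61.9 and 1.34 to 11040, 9548 and 4368 (7.25). AT5G12340 rose by 7.04 ± 0.61, but on the third protoplast array it read 1512 beside 7383 and 8606. Over 10000 on all 3 protoplast arrays were 159 probe sets, 90 of which had risen at least 2-fold. Over 10000 on all 3 osmotic arrays were 141, of which 24 fell at least 2-fold. The brightest called rises were AT5G35735, from 4616, 4684 and 3616 to 26260, 30770 and 27130, AT3G16530, the dehydrin gene LTI30 and AT5G16010. The brightest called falls were moderate. AT3G18280 went from 21160, 18930 and 18690 to 6821, 7433 and 11170 (-1.24 ± 0.21) and AT3G09200 from 18740, 19230 and 19570 to 8423, 9284 and 11320 (-1.0 ± 0.16). AT5G15200 (-0.50 ± 0.15, limma adjusted p = 0.0225) and AT5G35530 (-0.60 ± 0.21, limma adjusted p = 0.0449) passed narrowly. Leaving out 1 array ended the calls of AT5G16010 (up to limma adjusted p = 0.0621, without osmotic replicate 3) and, without protoplast replicate 1, those of AT5G15200 (0.0643) and AT5G35530 (0.153). Median scaling ended both as well, with differences of -0.16 (limma adjusted p = 0.480) and -0.26 (0.346).

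Among genes with a symbol, those with the 7 largest rises were a pair of beta-glucosidase genes, 3 glycosyltransferase genes, a peroxidase gene and AR781. BGLU45 (AT1G61810), whose enzyme releases monolignols from their glucosides, read 45.9, 33.0 and 24.6 in osmotic cells and 7300, 7885 and 2015 in protoplasts (6.62 ± 0.49, limma adjusted p = 2.6e-05). Its neighbour on chromosome 1, BGLU46, of the same enzyme group, read 26.9, 35.4 and 4.66 and 4537, 5138 and 401 (5.90 ± 0.86, limma adjusted p = 5.7e-04). Both were lowest on the third protoplast array, which still lay above all walled cultures. UGT73D1 rose by 5.81 ± 0.53, GT72B1 by 5.68 ± 0.36 and UGT73B4 by 5.45 ± 0.34. Prx37, of the class III peroxidases, rose by 5.70 ± 0.63 and AR781 by 5.33 ± 0.41 (the highest of these 7 limma adjusted p-values was 5.7e-04). The 43 rises of at least 8-fold with a symbol went on, in falling order, through GRX480 (5.31), a glutaredoxin gene, GSTU25, BGLU32, GH3.3, GH3.1, UGT73B5, XTH19, CML37, the methionine sulfoxide reductase gene MSRB9 (4.73), CCOAMT (4.46), DLAH (4.43), BGLU27, B120 (4.33), CML42 and XTH18. The rest, from YLS5 (3.88) down to UGT85A2 (3.02), held the immune receptor gene EFR, the jasmonate-responsive transcription factor gene ORA47 (3.62) and the chitinase gene CHI (3.33). 

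Among the falls, AT3G22540 went from 4184, 5370 and 4339 to 109.7, 157 and 158 (-4.89 ± 0.19, limma adjusted p = 3.0e-06), the largest fall on the array. The unnamed 251962_at went from 7598, 7135 and 3052 to 122, 222 and 215 (-4.81 ± 0.37) and 257467_at from 8683, 6841 and 4035 to 316, 200 and 293 (-4.47 ± 0.31). Both had read lower in intact than in osmotic cells, at 736, 696 and 1078 and 2895, 2359 and 1757, so protoplasts lay below both kinds of walled cells. AT4G35720 changed by -4.42 ± 0.32, AT1G62770 by -4.34 ± 0.37 and AT1G28400 by -4.33 ± 0.22. AT4G35725 had the widest spread, with 4589, 4449 and 256 in osmotic cells and 68.0, 124 and 46.7 in protoplasts (-4.30 ± 1.31, limma adjusted p = 0.0255). Its call was lost without osmotic replicate 1 or 2 or protoplast replicate 1 or 3, with a limma adjusted p of up to 0.0894 (without osmotic replicate 2). Among genes with a symbol, PR-1-LIKE, named for its likeness to a pathogenesis-related protein, went from 2926, 2394 and 1943 to 138, 107 and 156 (-4.02 ± 0.29, limma adjusted p = 2.5e-05). The expansin gene EXPA15 changed by -3.58 ± 0.56, the linker histone gene HIS1-3 by -3.38 ± 0.49, SECE1, a subunit of a thylakoid protein translocase, by -3.36 ± 0.20, GH3.17, an auxin-conjugating enzyme gene, by -3.29 ± 0.68, the tetraspanin gene TET2 by -3.22 ± 0.51 and the wall glucanase gene GH9B8 by -3.13 ± 0.32 (the highest of these 6 limma adjusted p-values was 0.00377). PSAN of photosystem I completed the 8 falls of at least 8-fold with a symbol.

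**Figure D3:**
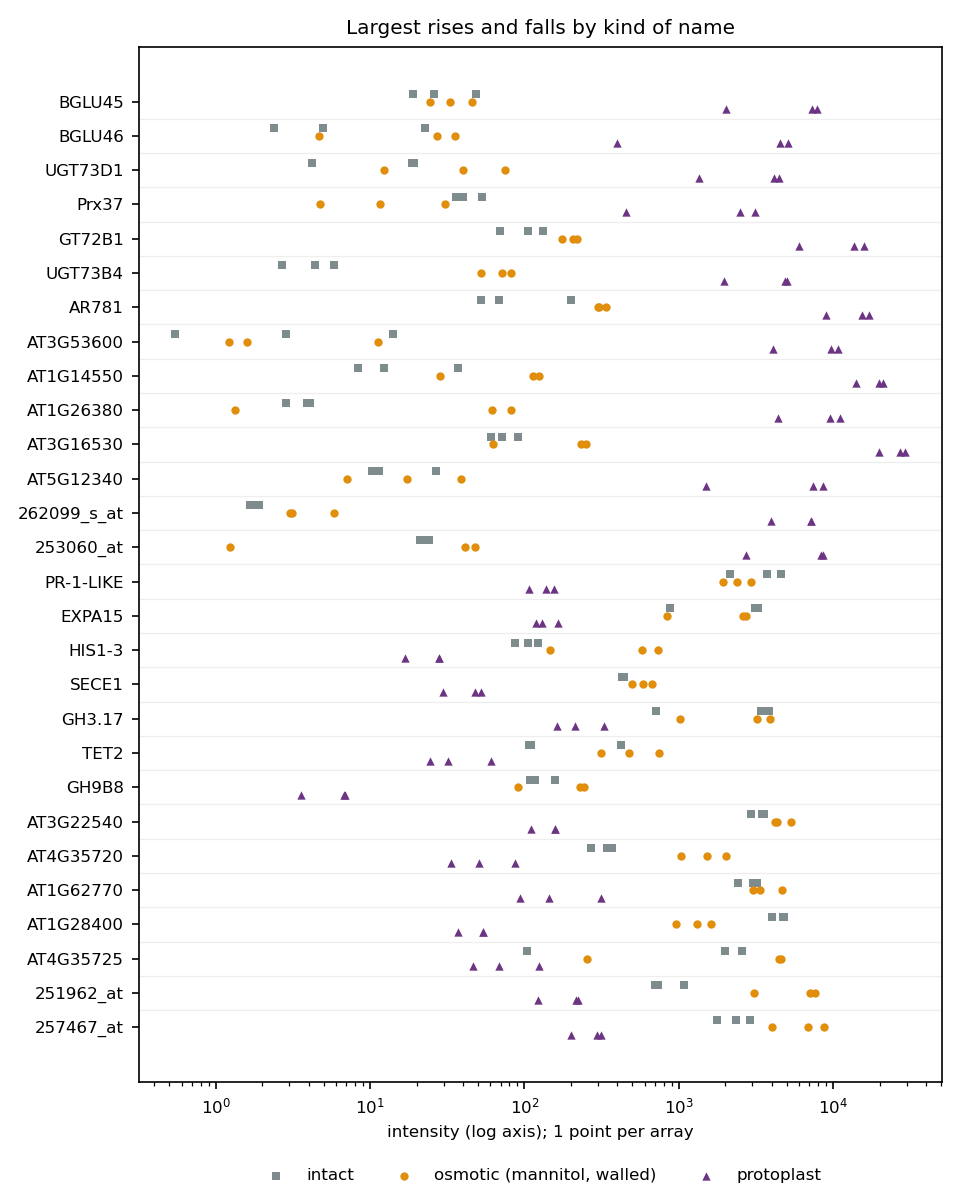
Points give the intensity (log x axis) on each of 9 arrays for the 7 largest rises and 7 largest falls with a symbol, the 5 and 5 with a locus code alone and the 2 and 2 without a name. Squares are intact, circles osmotic and triangles protoplast arrays. The triangles lie apart from the circles in every row because only probe sets without overlap of these groups were chosen. In most of the rises the lowest triangle is the third protoplast array, as for BGLU46 at 400.6.

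Genes that remodel xyloglucan rose where they moved. Of 10 measured genes for xyloglucan endotransglucosylase/hydrolases (XTH), which sever xyloglucan chains and join the ends to others, 5 rose and 0 fell. Over all 13355 genes, each read by its brightest probe set, 13.5% rose and 26.0% fell, and the XTH median was 0.99 against -0.14 over all genes. XTH18 read 988, 1116 and 871 in osmotic cells and 15340, 15660 and 16100 in protoplasts (3.97 ± 0.29, limma adjusted p = 2.7e-05). XTH19, beside it on chromosome 4, read 51.9, 68.0 and 42.3 and 2351, 3102 and 1753 (5.09 ± 0.29, limma adjusted p = 1.1e-05). XTH29 was near the floor in osmotic cells at 15.6, 17.6 and 17.6 and rose to 411, 384 and 198 (3.33 ± 0.26). XTH20 and the bright EXGT-A3 had 1.67 ± 0.23 and 1.17 ± 0.24. EXGT-A3 was already at 4918, 4648 and 6079 in osmotic cells. The 5 genes not called lay between -0.53 and 0.81, and XTH21 and XTH26 read under 7 on all 6 arrays.

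Expansins, proteins that loosen the wall without cutting it, fell in about the share of all genes. Of 18 measured, 0 rose and 5 fell, beside 13.5% and 26.0% of all genes, the median was -0.06 against -0.14, and the other 13 lay between -1.01 and 0.54. EXPA4, the brightest, went from 7972, 7033 and 3815 to 510.3, 726 and 1517 (-2.83 ± 0.40, limma adjusted p = 4.8e-04). EXPA15 went from 2596, 2714 and 843 to 119, 165 and 129, with the third osmotic array well below the others but above all protoplasts. EXPA20 fell with little spread, from 472, 406 and 406 to 78.2, 68.4 and 75.7 (-2.30 ± 0.15). EXPB3 (-1.93 ± 0.26) and EXLA1 (-1.24 ± 0.41, limma adjusted p = 0.034) completed the falls. The call of EXLA1 was lost with the replicate number as a block (limma adjusted p = 0.0539), after median scaling and quantile normalization, and in 5 of the 9 fits without 1 array (up to 0.123, without protoplast replicate 1).

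The endoglucanases of glycoside hydrolase family 9, some of which take part in making and trimming cellulose, held 5 falls and 0 rises among 15 measured, near the 26.0% of all genes that fell, with a median of -0.21. GH9B13 went from 1324, 1273 and 2436 to 115, 277 and 477 (-2.60 ± 0.52, limma adjusted p = 0.00306), GH9C2 from 503, 432 and 577 to 54.4, 78.8 and 93.2 (-2.52 ± 0.31), and GH9B8 from 244, 229.8 and 90.6 to 6.8, 3.56 and 6.82. GH9B7 and GH9A3 had -1.59 ± 0.26 and -1.14 ± 0.23. COB, which orients cellulose deposition, fell as well, from 367, 413 and 368 to 108, 163 and 165 (-1.32 ± 0.19, limma adjusted p = 5.2e-04), and so did SKU5, a membrane-anchored wall protein, with -1.33 ± 0.24. PEX4, whose symbol in this table is that of a peroxisome biogenesis gene and stood in the extensin list by it alone, was not called (-0.58 ± 0.24, limma adjusted p = 0.0797, and 0.0232 with the replicate number as a block), and the laccase gene LAC16 stayed near the floor.

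Cellulose synthase-like genes divided, with 3 of 8 measured higher and, beside COB in the same list of 9, 2 lower. CSLC04, which makes the glucan backbone of xyloglucan, went from 830.1, 849 and 957 to 5427, 4920 and 3689 (2.38 ± 0.19, limma adjusted p = 3.9e-05). CSLD2 went from 1040, 1008 and 647 to 4427, 4741 and 3309 (2.21 ± 0.23). Their relatives CSLC5 (-1.77 ± 0.29) and ATCSLC08 (-0.96 ± 0.26) of the same backbone family fell, and CSLA03, of the mannan synthase family, rose by 1.04 ± 0.27. The call of ATCSLC08 was lost without osmotic replicate 1 (limma adjusted p = 0.0564) or protoplast replicate 1. Among 22 trichome birefringence-like genes, a family whose studied members acetylate wall polysaccharides, 3 rose and 4 fell, beside 13.5% and 26.0% of all genes. TBL36 was the brightest of the 22 and went from 6547, 7755 and 8394 to 1098, 1674 and 2268 (-2.21 ± 0.25). TBL39 changed by -1.78 ± 0.30. The rises of TBL41 (1.68 ± 0.45), TBL45 (1.02 ± 0.31) and TBL21 (1.02 ± 0.34) and the fall of TBL20 (-1.01 ± 0.27) were each lost in some fit without 1 array, at a limma adjusted p of 0.0518 to 0.137. With the replicate number as a block 6 of the family fell, after median scaling 3. The 5 pectin genes differed by at most 1.10. ATPMEPCRB of the pectin methylesterases rose by 1.10 ± 0.25 (limma adjusted p = 0.00626), while PME61 (0.72 ± 0.22), PMEPCRF (-1.01 ± 0.29) and the galacturonosyltransferase gene GAUT15 (-0.76 ± 0.21) each lost the call when 1 array was left out. Their highest limma adjusted p was 0.0867 for PME61 (without osmotic replicate 1), 0.0771 for PMEPCRF and 0.0642 for GAUT15 (both without protoplast replicate 2). Median scaling also ended the calls of PMEPCRF and GAUT15 (limma adjusted p = 0.0780 and 0.138, the latter at -0.44), and centring on the hybridisation controls that of PME61 (0.0955). ATPMEPCRD was not called.

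**Figure D4:**
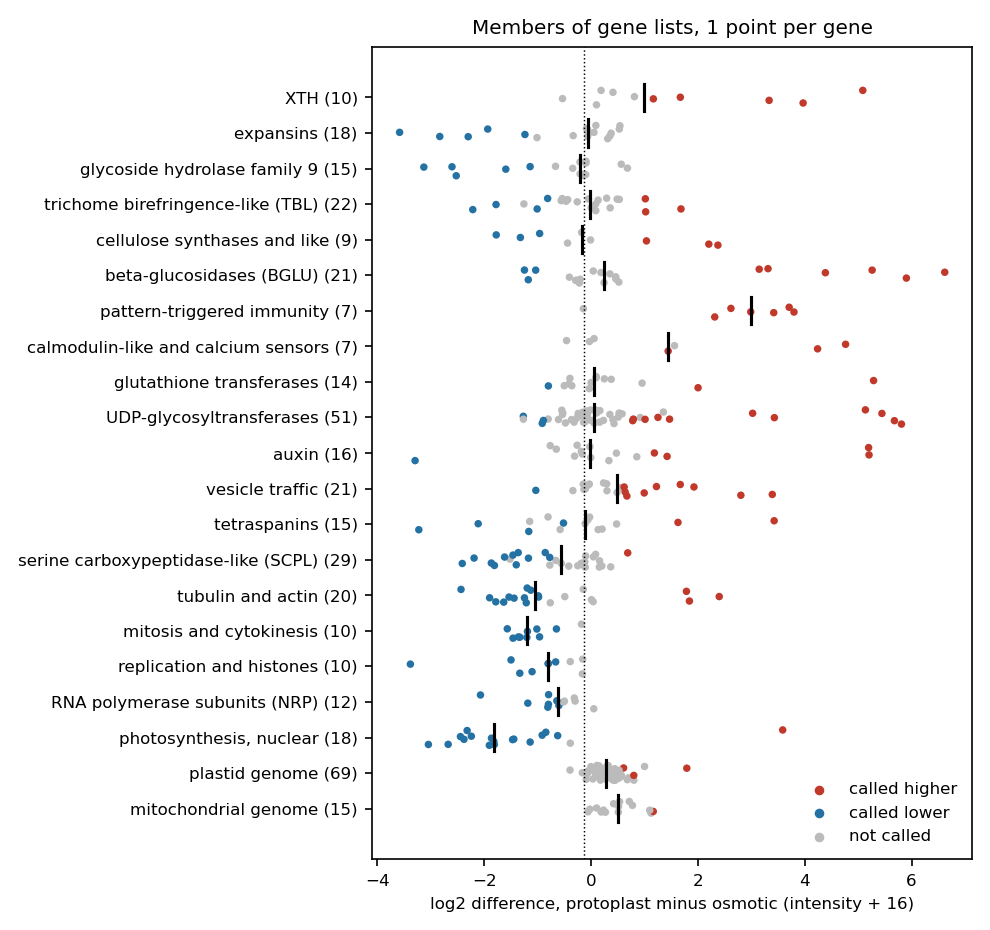
Each point is the log2 difference between protoplasts and osmotic cells of 1 measured gene, by list, with the number measured in brackets. Red points were called higher, blue lower and grey not called. Black bars mark list medians and the dotted line the median of all 13355 genes, -0.14. Red points alone fill the right of the XTH and immunity rows, and blue points the left of the expansin, mitosis and nuclear photosynthesis rows.

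The 2 genes matched by name to the synthesis of monolignols, the phenolic units of lignin, were both higher. CCR2, a cinnamoyl-CoA reductase gene, went from 1444, 1430 and 571 to 13670, 14750 and 11860 (3.64 ± 0.42, limma adjusted p = 1.7e-04) and HCT, of an earlier step, from 2303, 1436 and 1025 to 9849, 10840 and 6004 (2.51 ± 0.32, limma adjusted p = 2.9e-04). Of the 3 genes matched by name as class III peroxidases, enzymes that oxidise phenolics in the wall, Prx37 and PRX52 rose and PRXR1 fell. Members known by a locus code alone, such as AT4G08780 beside Prx37, were not in this list. Prx37 read 11.6, 4.72 and 30.6 in osmotic cells and 3139, 2480 and 455 in protoplasts. PRX52 rose from 2674, 1548 and 481 to 13720, 14110 and 12610 (3.40 ± 0.66) and PRXR1 went from 1441, 1972 and 5248 to 239, 312 and 864 (-2.56 ± 0.61, limma adjusted p = 0.00762). Both were uneven among osmotic cultures, in opposite senses on the third array. Of 21 beta-glucosidase genes, which free sugars from stored glycosides, 6 rose and 3 fell. Besides BGLU45 and BGLU46, BGLU32 rose from 17.2, 10.8 and 11.1 to 1850, 2273 and 303 (5.26 ± 0.64), BGLU27 by 4.39 ± 0.61, BGLU31 by 3.31 ± 0.25 and BGLU16 by 3.15 ± 0.52. BGLU44 (-1.25 ± 0.30) and BGLU43 (-1.17 ± 0.20) fell, as did BGLU25 (-1.04 ± 0.34), whose groups overlapped and whose call was lost after median scaling and in 7 of 9 fits without 1 array (limma adjusted p up to 0.128, without protoplast replicate 2).

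Most genes of the immune signalling list rose, in a list chosen with earlier results of these data known. Of 7 measured genes of pattern-triggered immunity, the response to microbial and damage patterns, 6 rose and 0 fell, with a median of 2.99. Over all genes 13.5% rose and 26.0% fell. EFR, the receptor of a bacterial elongation factor, went from 17.1, 8.46 and 9.81 to 503, 440.3 and 222 (3.80 ± 0.30, limma adjusted p = 3.3e-05). BIK1, the cytoplasmic kinase that passes on signals of such receptors, went from 1940, 1812 and 765 to 12140, 13090 and 8770 (2.99 ± 0.37, limma adjusted p = 2.6e-04). The U-box ubiquitin ligases PUB22, PUB23 and PUB24, which dampen this pathway, rose by 2.32 ± 0.54, 2.62 ± 0.40 and 3.71 ± 0.40. PUB23 went from 2872, 2995 and 1128 to 14360, 14610 and 10950. The transcription factor gene WRKY22 rose from 817, 710 and 415 to 7274, 7460 and 5852 (3.42 ± 0.29), whereas WRKY53, the remaining member, had -0.14 ± 0.44 with overlapping groups. PUB22, PUB23, BIK1 and WRKY22 were each lowest on the third osmotic array (787.7 beside 3572 and 3511 for PUB22). Of 9 genes of the PUB family, PUB43 also rose (1.30 ± 0.23) and PUB25 fell, from 218, 333 and 61.5 to 27.3, 20.7 and 26.4 (-2.19 ± 0.47).

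Of 6 WRKY genes, WRKY22, WRKY6 (1.70 ± 0.36) and WRKY47 (1.40 ± 0.44) rose and WRKY20 (-0.68 ± 0.22) fell. The calls of WRKY47 and WRKY20 were lost when 1 array was left out, with a highest limma adjusted p of 0.0885 without protoplast replicate 3 and 0.113 without protoplast replicate 1. Median scaling took WRKY20 to -0.36 (limma adjusted p = 0.209). Calcium sensors of the calmodulin-like family held 3 rises and 0 falls among 7 measured, with the other 4 between -0.46 and 1.56. CML37 went from 42.5, 28.5 and 50.4 to 1332, 1402 and 1802 (4.76 ± 0.20, limma adjusted p = 4.0e-06) and CML42 from 335, 309.7 and 139 to 4952, 4546 and 5275 (4.24 ± 0.31). CML23 rose from the floor by 1.44 ± 0.35, and CML38 did not pass, with 3222, 3211 and 1672 against 8570, 7418 and 7106 (1.56 ± 0.65, limma adjusted p = 0.0841, and 0.0326 with the replicate number as a block). Without the third intact array, at 199.2 beside 1326 and 1507, it passed as well (limma adjusted p = 0.00217). Of 8 glutamate receptor-like channel genes, 3 rose, with ATGLR1.2 at 2.63 ± 0.32, GLR2.9 at 1.38 ± 0.34 and GLR1.4 at 0.71 ± 0.19, the last lost without protoplast replicate 2 (limma adjusted p = 0.0550). None of them fell, but 1 did with the replicate number as a block and 2 after centring on the hybridisation controls. Of the 4 genes matched by name as receptor kinases that sense the wall itself, 1 rose and 1 fell, both by less than 2-fold. FER rose from 1860, 1630 and 1418 to 3303, 3290 and 2977 (0.96 ± 0.16, limma adjusted p = 0.00131), THE1 went from 194, 189 and 226 to 91.9, 98.8 and 159 (-0.75 ± 0.20, limma adjusted p = 0.0147), and ANX1 and ANX2 read under 23 on all 6 arrays. The call of THE1 was lost after median scaling and quantile normalization and without protoplast replicate 1 (limma adjusted p = 0.0576) or 2. Of 11 genes for RALF peptides, ligands of FER and its relatives, RALFL33 (1115, 957 and 1028 to 4601, 5501 and 3865, 2.14 ± 0.23), RALFL18 (1.86 ± 0.18) and RALFL31 (1.02 ± 0.28) rose, and RALFL24 (-1.77 ± 0.23) and RALFL34 (-1.01 ± 0.30) fell. RALFL31 and RALFL34 lost their calls when 1 array was left out, with a highest limma adjusted p of 0.0627 without protoplast replicate 2 and 0.0648 without osmotic replicate 3. RALFL34 also lost it after median scaling (limma adjusted p = 0.134).

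Hormone genes went several ways. In the jasmonate list of 4, DGL, a lipase gene of jasmonate synthesis, rose from 2.34, 5.08 and 2.79 to 107, 264 and 58.5 (2.82 ± 0.43, limma adjusted p = 7.5e-04) and OPCL1, of its last steps, from 554, 553 and 1809 to 5167, 5177 and 2103 (2.20 ± 0.49, limma adjusted p = 0.00547). For OPCL1 the third arrays of both groups lay close together. The transcription factor gene MYC3 rose by 0.90 ± 0.20 and MYC4 changed by -1.15 ± 0.38. MYC4 lost its call after median scaling and quantile normalization and in 4 of 9 fits without 1 array, with a limma adjusted p of up to 0.112 (without protoplast replicate 1). SAG101, of salicylate-linked immunity, went from 49.6, 71.4 and 39.5 to 320.2, 298 and 326 (2.28 ± 0.20, limma adjusted p = 4.7e-05). EIN3, the ethylene transcription factor gene, had 0.59 ± 0.19 (limma adjusted p = 0.0336, 0.103 without osmotic replicate 3 and 0.269 after centring on the hybridisation controls). Among 16 auxin genes, GH3.3 and GH3.1, auxin-conjugating enzyme genes known as early auxin-response genes, rose from 16.4, 5.39 and 35.4 to 998, 1319 and 1304 (5.20 ± 0.49, limma adjusted p = 6.9e-05) and from 36.9, 7.29 and 39.0 to 1510, 2539 and 839.9 (5.20 ± 0.69). Their relative GH3.17 fell from 3909, 3238 and 1019 to 211, 328 and 163 (-3.29 ± 0.68). IAA30 (1.42 ± 0.31) and IAA18 (1.19 ± 0.21), of the Aux/IAA repressors, rose, and the other 11 auxin genes, most of them under 100 on all arrays, were not called.

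Some detoxification genes rose by large factors, while most of those measured were not called. Of 51 UDP-glycosyltransferase genes, which attach sugars to hormones, phenolics and foreign compounds, 11 rose and 3 fell. Over all genes 13.5% rose and 26.0% fell, and the list median was 0.05. GT72B1, which glucosylates phenolics, went from 218, 206 and 174 to 13710, 15930 and 6048 (5.68 ± 0.36, limma adjusted p = 1.3e-05). The adjacent UGT73B4 and UGT73B5 went from 81.9, 71.5 and 52.7 to 5014, 4892 and 1957 and from 70.02, 132 and 124 to 4275, 4428 and 4018 (5.14 ± 0.36). UGT73D1 and its neighbour UGT73C7 rose by 5.81 ± 0.53 and 3.43 ± 0.43. UGT78D2, a flavonoid glucosyltransferase gene, changed by -1.27 ± 0.28, UGT88A1 by -0.91 ± 0.31 and UGT74D1 by -0.89 ± 0.18. The call of UGT88A1 was lost after median scaling and quantile normalization. It was also lost in fits without 1 array (limma adjusted p up to 0.135, without osmotic replicate 2). Of 14 glutathione transferase genes, GSTU25 went from 278, 167 and 239 to 9100, 10290 and 8712 (5.29 ± 0.23, limma adjusted p = 4.1e-06) and GSTU22 from 165, 94.0 and 145 to 532, 508 and 708 (2.0 ± 0.29). GSTL3 had -0.80 ± 0.22, a call lost after median scaling and without protoplast replicate 1 (limma adjusted p = 0.0576). The other 11 were not called. Of 24 cytochrome P450 genes, mostly CYP71B members near the floor, CYP71B6 rose from 1319, 1210 and 597 to 5742, 5067 and 6544 (2.53 ± 0.35) and CYP71B22 by 1.05 ± 0.25.

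Genes of water stress did not move as a group. Of 6 measured, the dehydrin gene LTI30 rose further, from 8662, 5078 and 9596 in osmotic cells to 21440, 27690 and 26530 (1.74 ± 0.25, limma adjusted p = 5.0e-04). STZ, a zinc finger repressor gene of stress responses, rose from 525, 622 and 564 to 7347, 5782 and 6111 (3.45 ± 0.31). COR15A, for a chloroplast membrane protector, fell from 296, 202 and 52.2 to 20.01, 22.5 and 3.09 (-2.48 ± 0.59). The dehydrin gene COR47 read 7471, 5497 and 12850 in osmotic cells and 690.2, 762 and 6900 in protoplasts, where the third array stood apart, and did not pass (-2.38 ± 0.89, limma adjusted p = 0.0577). It passed with the replicate number as a block (limma adjusted p = 0.00329) and without protoplast replicate 3 (0.0029). In the list of the unfolded protein response, which answers misfolded proteins in the endoplasmic reticulum, the transcription factor genes BZIP60 (2198, 2049 and 2144 to 9668, 8996 and 7952, 2.05 ± 0.16) and BZIP28 (1.50 ± 0.18) rose in a list of 7 with 3 rises and 1 fall. The chaperone gene CRT1b fell from 4670, 4640 and 5137 to 1915, 2231 and 2322 (-1.16 ± 0.17). ATCRT1 (1.99 ± 0.36) stood in that list by its symbol alone. Of 10 autophagy genes, ATG8E (2.12 ± 0.23) and ATG8H (1.88 ± 0.26) rose and ATG8G (-1.54 ± 0.27) and ATG8C (-0.53 ± 0.15) fell, the last with a call that was lost without osmotic replicate 3 (limma adjusted p = 0.0540) and after median scaling (-0.19, limma adjusted p = 0.419). MCCB and MCCA, subunits of a leucine breakdown enzyme, changed by -2.38 ± 0.33 and -1.94 ± 0.27 in a carbon starvation list of 6 with 2 rises and 4 falls, while BZIP53, a transcription factor gene of low-energy responses, rose from 696, 638 and 644 to 5042, 4939 and 3239 (2.68 ± 0.20). PDC2, a pyruvate decarboxylase gene of fermentation, fell evenly, from 2469, 2680 and 2440 to 551, 554 and 574 (-2.14 ± 0.19, limma adjusted p = 5.6e-05). None of 4 heat shock genes was called. Of these, ATHSP22.0 had -1.42 ± 1.28 with the third arrays apart from the rest (297, 355 and 6224 and 116, 121 and 2076), and with replicates 1 and 2 alone 2 of the 4 were called lower.

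Genes of secretion rose more often than they fell, with 9 of 21 higher and 1 lower, beside 13.5% and 26.0% of all genes. SEC1B, of the Sec1/Munc18 proteins that prime membrane fusion, went from 187, 212 and 182 to 2698, 2176 and 1773 (3.39 ± 0.19, limma adjusted p = 8.7e-06) and its relative KEU from 737, 578 and 749.5 to 2661, 2680 and 2592 (1.93 ± 0.19). PRA1.B4, of a family of traffic regulators at the Golgi, rose by 2.81 ± 0.35. The exocyst subunits SEC15B and SEC6 rose by 1.00 ± 0.22 and 0.62 ± 0.16, a call that for SEC6 was lost after centring on the hybridisation controls (limma adjusted p = 0.109). AtSec20 had -1.03 ± 0.27, a call lost without protoplast replicate 1 (limma adjusted p = 0.0529) and after median scaling (0.0638). The count of rises was 13 after median scaling, 10 under quantile normalization and 6 with centring on the hybridisation controls. Of 12 genes for sorting into multivesicular bodies, 4 rose, led by VPS60.1 (459, 473 and 526 to 2080, 2115 and 2160, 2.09 ± 0.15), and 4 fell, led by VPS9B (-2.34 ± 0.29). Among the tetraspanins, which organise membrane patches, TET8, a marker of plant exosomes, went from 1474, 1199 and 1092 to 13230, 15440 and 12200 (3.43 ± 0.18, limma adjusted p = 7.2e-06). Of the 15, TET9 (1.63 ± 0.42) also rose, and TET2, TET3 (-2.11 ± 0.43), TET7 (-1.17 ± 0.20) and TET10 (-0.52 ± 0.18) fell. The call of TET10 was lost after median scaling and quantile normalization and in 7 of 9 fits without 1 array (limma adjusted p up to 0.131, without protoplast replicate 2).

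Families of secreted and vacuolar proteases gave different counts. Of 29 serine carboxypeptidase-like genes, 11 fell and 1 rose, with a median of -0.56, beside 26.0% of all genes that fell. SCPL45 went from 7690, 8942 and 10890 to 967, 1393 and 3606 (-2.41 ± 0.41, limma adjusted p = 0.00135), with the third protoplast array the nearest to walled cells. scpl26 (-2.19 ± 0.20) and scpl50 (-1.87 ± 0.44) followed. The 11 subtilase genes held 3 rises and 3 falls around a median of 0.27. ARA12 went from 354, 295 and 418 to 33.7, 39.1 and 63.1 (-2.62 ± 0.24), and SBTI1.1 (-1.41 ± 0.33) and S1P (-1.26 ± 0.19) fell with it. SBT3.5 rose from 103, 120.3 and 114 to 1723, 1735 and 1032 (3.52 ± 0.22), SBT3.3, an immune-linked subtilase gene, by 2.0 ± 0.30 and ATSBT5.2 by 0.99 ± 0.20. Of 12 ubiquitin protease genes 4 rose, by at most 0.85, and 0 fell. The count of rises was 8 after median scaling and 2 after centring on the hybridisation controls. Of 12 ubiquitin-conjugating enzyme genes, UBC19 rose (0.55 ± 0.18, limma adjusted p up to 0.123 without osmotic replicate 1, and 0.177 after centring on the hybridisation controls) and UBC37 (-1.16 ± 0.20) and UBC20 (-1.01 ± 0.19) fell, and 4 fell with the replicate number as a block and 8 after centring on the hybridisation controls.

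Genes of dividing cells were lower. Of 10 genes of mitosis and cytokinesis, 9 fell and 0 rose, with a median of -1.20, beside 26.0% and 13.5% of all genes. ATMAP65-6, of a family of microtubule-associated proteins, went from 284, 467 and 436 to 95.7, 128 and 140.4 (-1.57 ± 0.22, limma adjusted p = 4.7e-04). The kinase gene AUR3 changed by -1.46 ± 0.26 and the spindle checkpoint gene BUB3.1 from 1434, 1871 and 2189 to 557, 684 and 876 (-1.36 ± 0.22). The exception was ATSMC2 of condensin, at -0.18 ± 0.16. Of 10 genes of replication and histones, 7 fell and 0 rose. HIS1-3, a linker histone gene induced by drought, went from 580, 733 and 146 to 28.1, 28.1 and 16.9, and POLA3 of the primase changed by -1.50 ± 0.23 and the centromeric histone HTR12 by -1.33 ± 0.25. The core histone genes HTB2, HTB4 and HTB11 had -0.80 ± 0.17, -0.66 ± 0.16 and -0.80 ± 0.17, calls that were lost after median scaling (limma adjusted p = 0.0566, 0.177 and 0.0669). The counts of falls were 7 and 4 after median scaling and 8 and 7 after quantile normalization for these 2 lists.

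The cytoskeleton followed with exceptions. Of 20 tubulin, actin and associated genes, 12 fell and 3 rose, beside 26.0% and 13.5% of all genes. TUB7 went from 2117, 2482 and 2538 to 567, 597 and 720.5 (-1.90 ± 0.17, limma adjusted p = 5.3e-05), and TUB6 changed by -1.78 ± 0.29. NET3C, of the actin-membrane linkers called NET, went from 106, 122 and 101 to 2.82, 13 and 6.86 (-2.43 ± 0.22). The 3 rises were all of that family, with NET4B at 2.40 ± 0.39, NET2D at 1.84 ± 0.28 and NET1D at 1.79 ± 0.35. Of 15 calmodulin-binding IQD genes, which act at microtubules, 5 fell, led by IQD24 (289, 352 and 309 to 3.16, 36.5 and 74.5, -2.88 ± 0.47), and IQD23 rose by 1.47 ± 0.41, a call lost without protoplast replicate 1 (limma adjusted p = 0.0616). The IQD rises numbered 2 with the replicate number as a block and 4 after median scaling. Of 14 TRM genes of microtubule arrays 3 fell, under the 26.0% of all genes, and the list median was -0.06, with TRM20 at -1.71 ± 0.24 and TRM19 at -1.51 ± 0.15.

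Nuclear genes of photosynthesis were lower almost throughout. Of 18 measured, 16 fell and 1 rose, with a median of -1.82, beside 26.0% and 13.5% of all genes. PSAN, of photosystem I, went from 848, 666 and 751 to 58.9, 68.2 and 112 (-3.04 ± 0.25, limma adjusted p = 3.9e-05). PRK, of the Calvin cycle, went from 995, 1035 and 1025 to 137, 164 and 138 (-2.67 ± 0.19), and CHLI2, of chlorophyll synthesis, from 221, 281 and 258 to 34.5, 18.6 and 52.5 (-2.44 ± 0.24). RCA, the activase of Rubisco and the brightest of the list, went from 5690, 5519 and 4446 to 1219, 1540 and 1506 (-1.86 ± 0.19). The rise was that of HEMA2, a tetrapyrrole synthesis gene expressed outside green tissue, from 498, 481 and 383 to 6679, 7170 and 3672 (3.59 ± 0.26, limma adjusted p = 2.5e-05). After median scaling 14 of the 18 fell and after quantile normalization 15. Genes of the plastid's own genome gave other values. Of 69 plastid-encoded genes, 0 fell and 3 rose, with a median of 0.28 and a range of -0.39 to 1.79. The rises were petN (1.79 ± 0.16), ndhJ (0.80 ± 0.27, limma adjusted p = 0.0356, and 0.128 without protoplast replicate 2) and rpoB (0.61 ± 0.18, limma adjusted p = 0.0205, 0.0725 without osmotic replicate 2 and 0.208 after centring on the hybridisation controls). With the replicate number as a block 8 plastid genes rose, with replicates 1 and 2 alone 14, without protoplast replicate 3 also 14, after median scaling 20 and after centring on the hybridisation controls 1. The 15 mitochondrial genome genes had a median of 0.51 with 1 rise, nad2 (1.17 ± 0.26), a count that was 7 after median scaling. The labelling primes on poly(A), which most organelle transcripts lack or carry only briefly.

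Subunits of the nuclear RNA polymerases fell in 7 of 12 genes with 0 rises, beside 26.0% and 13.5% of all genes. The falls ran from NRPB9B (669.8, 736 and 1148 to 144, 155 and 282, -2.07 ± 0.30) down. Their count was 4 after median scaling and 9 after centring on the hybridisation controls. Among 4 genes of ribosomal RNA processing, 2 fell. RRP41 of the RNA exosome fell evenly from 1070, 1087 and 912 to 345, 358 and 337 (-1.51 ± 0.15, limma adjusted p = 7.6e-05). Among 13 mitochondrial dehydrogenase genes, NDB2, an alternative NADH dehydrogenase gene of stress, rose from 1051, 678 and 758 to 5584, 6287 and 4128 (2.67 ± 0.26, limma adjusted p = 7.8e-05), while NDB1 (-1.34 ± 0.29) and ICDH (-1.12 ± 0.19) fell. ICDH, of a peroxisomal isocitrate dehydrogenase, stood in that list by its symbol alone. Among 14 SWEET sugar transporter genes, 3 rose and 0 fell. SWEET8 and SWEET16 were uneven in protoplasts, at 835, 861 and 104 and 276, 558 and 47.9, and all 3 rises were lost without protoplast replicate 1 (limma adjusted p = 0.152 for SWEET8, 0.0924 for SWEET16 and 0.0713 for SWEET2). With the replicate number as a block 1 of the family fell. Of 14 bZIP genes BZIP53, BZIP60 and BZIP28 rose and the dim bZIP48 fell. Of smaller families, 0 of 5 class XI myosin genes and 0 of 4 jacalin lectin genes were called, and 0 rose and 3 fell of 8 chromatin remodelling genes, with a median of -0.52. A median scaling of the arrays gave 1 rise and 0 falls of the remodelling genes.

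Some genes that lie next to each other on a chromosome rose together. Among 5845 pairs of measured neighbours in the gene order of TAIR10.1, 40 pairs had both genes called and at least 4-fold higher, and 10 both at least 4-fold lower. Of the neighbours of such risers 13.7% were risers themselves, beside 4.98% of all neighbours, and for the falls these shares were 5.38% and 3.18%. The difference between these shares was not tested. Several of the pairs are members of 1 family, whose probes can share signal. Examples were BGLU45 and BGLU46, BGLU31 and BGLU32, BGLU27 and BGLU16, and UGT73B5 and UGT73B4. Further examples were UGT73D1 and UGT73C7, XTH18 and XTH19, and Prx37 with AT4G08780 (2.84). Pairs known by locus codes alone were not sorted by family, so the share of pairs within 1 family is not known here. In other pairs the names do not show a shared family, such as BIK1 with AT2G39650 (2.83) or BZIP60 with AT1G42980 (2.51) and AT1G43000 (2.19). The largest adjacent falls were those of AT3G22540 with AT3G22550 (-3.60) and of AT4G35720 with AT4G35725.

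Some genes moved in protoplasts against the direction they had taken in mannitol. From intact to osmotic cells 4.15% of probe sets were called higher and 3.92% lower by the same fit. Of those called higher in mannitol, 500 were called higher again in protoplasts and 170 lower. Of those called lower in mannitol, 468 were called lower again and 101 higher. The 2 steps share the osmotic arrays, which ties their errors together, and the values of both steps are given for description. EXO, an extracellular growth gene responsive to brassinosteroids, read 3969, 4044 and 3957 in intact cells, 506, 648 and 965 in osmotic cells and 1534, 1861 and 2386 in protoplasts. Its differences were -2.52 ± 0.25 in mannitol and 1.45 ± 0.25 from there to protoplasts, which left protoplasts under intact cells. TIC, of the circadian clock, read 1267, 1414 and 1380, 818, 555 and 497 and 1844, 1728 and 996 in that order, and the cation exchanger gene CHX16 114, 60.4 and 56.8, 10.6, 11.9 and 27.7 and 115, 53.9 and 52.0. The plastid gene petN read 45.2, 56.2 and 60.1, 9.88, 9.54 and 5.36 and 72.6, 66.7 and 64.1. In the other sense, SHL1, a chromatin reader gene, read 556, 453 and 408, 1027, 881 and 1093 and 308, 259.7 and 310.3, and protoplasts ended below intact cells. SKP2A, an F-box gene of the cell cycle, read 194, 299 and 215, 643, 638 and 565 and 180.5, 140.5 and 314. ROXY2 and bZIP48 did so close to the floor, with protoplasts at 4.05, 6.32 and 6.64 and 1.21, 1.63 and 2.34. In osmotic cells petN and CHX16 were near the floor as well.

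**Figure D5:**
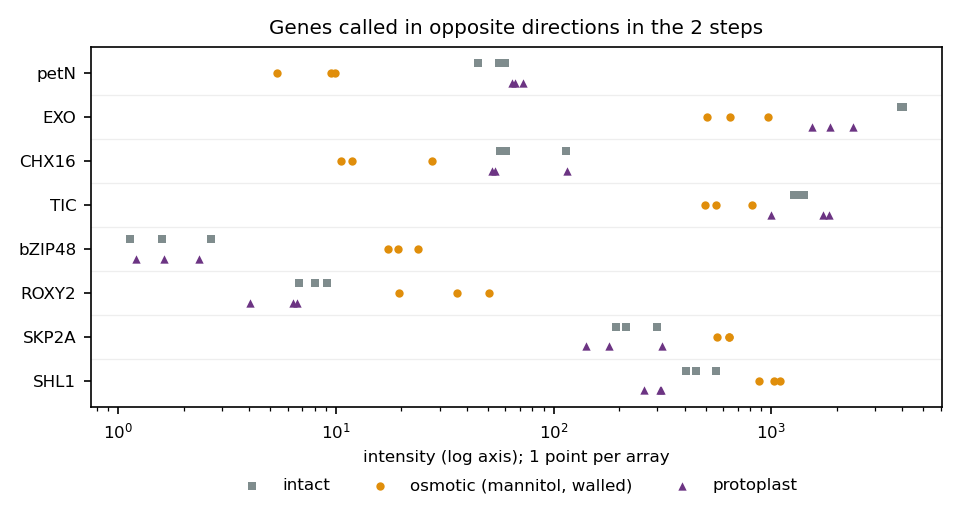
Points give the intensity (log x axis) on each array of 8 genes with a symbol, the 4 most opposite each way among those called from intact to osmotic cells and again, with the other sign, from osmotic cells to protoplasts. Squares are intact, circles osmotic and triangles protoplast arrays. For petN, EXO, CHX16 and TIC the circles lie left of the other marks, and for bZIP48, ROXY2, SKP2A and SHL1 they lie right of them.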

How the data were processed

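Total RNA was taken with a column kit, and 750 ng was labelled with biotin through an in vitro transcription kit primed at the 3′ end and hybridised to ATH1 arrays, per the labels' protocols. The authors deposited 1 linear intensity per probe set and array. The values show a mean of 500 on each array after trimming 2% at both ends; the sources used here do not name the software behind them. The 3 arrays per group limit the precision.

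Here log2 of the intensity plus a pseudocount of 16 was fitted with limma 3.58.1 (R 4.3.3) over all 9 arrays, with no block, and the contrast protoplast minus osmotic was adjusted by Benjamini-Hochberg over 22746 probe sets. Single values were compared by exact two-sided permutation tests (scipy 1.17.1). The fit was tested on simulated data. GEO's platform annotation gave 1 gene for 13513 probe sets, several for 503 and none for 8730. Of the 13513, 13436 were matched in the TAIR10.1 gene table, which updated symbols and gave gene order. Lists were counted over 13355 genes by the brightest probe set.

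The members and lists were chosen with earlier results of these data known. Of 68 lists, 61 had members matched by name. Those of callose synthases, camalexin and indole glucosinolates, ABC transporters, aquaporins, trichomes, phloem and seed storage had none. Such genes may still be on the array under a locus code or without a name. Named genes were, among called probe sets whose 2 groups did not overlap, the 7 largest rises and falls with a symbol, the 5 with a locus code, the 2 unnamed, up to 3 each way per list (the 2 of lowest p where none was called), the 4 brightest each way and the 4 most opposite to the step from intact to osmotic cells. A search for bright genes with an interval within 0.3 of 0 found 0 of 1096. Some genes were named after their values were seen, to complete a list, set or pair. They are GRX480, MSRB9, CCOAMT, DLAH, B120, YLS5, ORA47, CHI, UGT85A2, UGT73B5, UGT73C7, BGLU16, BGLU25, BGLU27, BGLU31, XTH20, XTH21, XTH26, EXGT-A3, EXLA1, EXPB3, GH9A3, GH9B7, ANX1, ANX2, BIK1, WRKY53, PUB43, CML38, COR47, IAA18, SEC15B, SEC6, SWEET8, TET10, ATSMC2, HTB2, HTB4, HTB11, RCA, ndhJ, AT4G28085, AT4G08780, AT2G39650, AT1G42980, AT1G43000 and AT3G22550.

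Samples of 1 replicate number deviated together from their group means, most clearly the third. The r over probe sets was 0.206, 0.137 and 0.340 between protoplast and osmotic arrays 1, 2 and 3. Between different numbers it was -0.266 to 0.172, and arrays 1 and 2 did not correlate best with their own number throughout. The main fit did not pair the arrays by number. A fit with the number as a block is quoted where it changed a call. The labels do not say what a number shares. Alternatives were other scalings, pseudocounts of 1 and 64, the dimmest 40% left out, 6 arrays alone, array weights, a trended robust prior, the mean of a gene's probe sets, an adjusted p under 0.01, each array left out and, chosen after seeing the data, replicates 1 and 2 alone and a term for the third arrays. Promoter sequences were not used here, and the results of 2 of the lists are not reported here.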

Additional observations from a re-analysis of the deposited data

How the results depend on the processing

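Counts of calls kept within 1.5 times of 3366 rises and 6199 falls under every alternative that gave such counts at an adjusted p under 0.05. At an adjusted p under 0.01 some calls among the named probe sets were lost. The mean of a gene's probe sets was run for gene lists alone. The count of falls of at least 2-fold was 3936 and became 2439 after median scaling, which moved the median of all probe sets from -0.15 to 0.04. Leaving out each array in turn gave 2816 to 3527 rises, 5120 to 6640 falls, 2240 to 2670 rises of at least 2-fold and 3452 to 4576 such falls. With the replicate block there were 3540 rises and 6540 falls, of which 3272 and 6056 were shared with the fit without it. The block ended the call of EXLA1 and brought PEX4, CML38 and COR47 past the threshold, and it changed no other call among the 261 named probe sets. Over those, no alternative reversed a call.

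The 6 arrays alone gave 3108 rises and 5710 falls, replicates 1 and 2 alone 3789 and 7331, and a term for the third arrays 3726 and 6853. In the dimmest of 10 bins 1.14% rose and 0.967% fell; whether dim genes did not change or could not be called was not tested. The 3 arrays of a group, the absence of a mock-digested control, the shared origin of probes in gene families and the 8730 unnamed probe sets bound what these values can show.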
